A study of Drosophila melanogaster with 3 samples.

Results

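The Notch pathway core genes examined here were N, Dl, Ser, Su(H), H, mam, neur and gro, 8 of the 13945 protein-coding genes annotated on the arms 2L, 2R, 3L, 3R, 4 and X of the Drosophila melanogaster genome. Their peaks were all those whose summit had a start of one of these genes as the nearest start of any protein-coding gene, or lay inside the body of one of them. The measurement was ChIP-seq, sequencing of the DNA precipitated with a protein, for CG4328, a LIM-homeodomain transcription factor, in a single group of 3 biological replicates. The chromatin came from whole transgenic embryos of both sexes, aged 8 to 24 h, of a line that expresses CG4328 with GFP, a fluorescent tag, at its C-terminal end, and it was precipitated with an anti-GFP antibody. All samples carry the transgene, so no untreated or untagged group is compared. A peak marks DNA recovered with the anti-GFP antibody from a mixture of all embryonic cells, not from a cell type. Positions are in dm6.

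Notch signalling passes between touching cells. The transmembrane ligands Delta (Dl) and Serrate (Ser) on a cell bind the receptor Notch (N) on its neighbour, and Neuralized (neur), a ubiquitin ligase, promotes the endocytosis of the ligand that activates the receptor. The receptor is then cut, and its intracellular part enters the nucleus, where it joins the DNA-binding protein Suppressor of Hairless, Su(H), and the co-activator Mastermind (mam) on target genes. Without the signal, Hairless (H) links Su(H) to co-repressors, among them Groucho (gro), which also acts with the Enhancer of split, E(spl), repressors that Notch induces. In the embryo the pathway limits how many cells become neural precursors and guides many later choices between sister cells.

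The optimal list, thresholded by the authors for reproducibility, held 3688 peaks, and the relaxed lists of the pool and of replicates 1, 2 and 3 held 30000 each. Rank 1 is the peak with the highest signal value that the authors' peak caller gave in a list, and the optimal peaks are the 3688 highest of the pooled list. A replicate was said to support an optimal peak when any of the replicate's own 3688 highest peaks shared at least 1 bp with it. Replicate 3 stood apart from the others: 17.59% of its relaxed peaks had a summit within 500 bp of a gene start, against 30.22% and 32.89% in replicates 1 and 2. The tagged gene CG4328 itself had 0 optimal peaks, and its relaxed peaks were in replicate 3 (7) and in the pool (3), with 0 in replicates 1 and 2. The read depth of the libraries is unknown.

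Of the 8 core genes, 5 had at least 1 optimal peak: N, Ser, mam, neur and gro. Dl, Su(H) and H had none. By the same rule 20.1% of all protein-coding genes had an optimal peak, and 18.8% had a peak nearest to a start, a criterion that 4 of the 8 met (Ser, mam, neur and gro). Genes differ in length, and the share with a peak was higher in longer genes, from 8.164% in the shortest of 4 equal length classes to 38.64% in the longest, which holds all core genes but Su(H). Among genes at least as long as Su(H), the shortest of the 8, the share was 36.0%. At least 2 peaks were found at 4 of the 8, N, mam, neur and gro, against 5.62% of all genes. Both figures count overlapping peaks separately. The 2 peaks of N overlap each other, as do those of neur, and merge into 1 region at each gene. After merging, mam has 7 regions and gro has 2. The core genes were chosen with earlier results of these data known, so these shares are set side by side as a description.

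The 5 genes held 15 of the 3688 optimal peaks, 8 at mam, 2 each at N, neur and gro, and 1 at Ser, and these merge into 12 separate regions. All 3 replicates supported 10 of the 15, against 56.2% of all optimal peaks, and the other 5 were all at mam. Both figures count overlapping peaks separately. The 10 include the 2 overlapping peaks of N and the 2 of neur, and the same highest replicate peaks overlap both peaks of a pair. Within 500 bp of a start lay 7 of the 15, against 53.1% of all optimal peaks. Counting only the 3688 highest peaks of each replicate, 5 of the 8 genes had a peak in replicate 1, where 19.8% of all genes had one. The count was 5 in replicate 2, where the share was 19.5%, and 6 in replicate 3, where it was 20.3%. The gene that replicate 3 adds is Su(H).

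The highest peaks of the 4 genes whose sequence is given here lay in an intron (N), between genes (Ser) and within 150 bp upstream of an internal start (neur and gro). The letters around their summits are shown to let a reader see what lies under the peaks. Each sequence is 151 bases of the plus strand of the Release 6 genome centred on the summit of the gene's highest optimal peak, at chrX:3162429-3162579 for N, chr3R:27209144-27209294 for Ser, chr3R:9033800-9033950 for neur and chr3R:26042464-26042614 for gro. Capitals mark the letters TATAAA on either strand (TTTATA on the strand shown) and the homeodomain core TAATTA, which overlap each other in neur. None of these windows holds an annotated UTR base.
N: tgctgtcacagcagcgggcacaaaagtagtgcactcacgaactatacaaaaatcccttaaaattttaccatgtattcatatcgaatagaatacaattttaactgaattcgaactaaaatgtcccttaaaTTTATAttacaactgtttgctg
Ser: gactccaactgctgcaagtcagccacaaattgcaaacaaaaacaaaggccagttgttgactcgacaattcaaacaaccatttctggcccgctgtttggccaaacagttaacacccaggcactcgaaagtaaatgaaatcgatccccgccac
neur: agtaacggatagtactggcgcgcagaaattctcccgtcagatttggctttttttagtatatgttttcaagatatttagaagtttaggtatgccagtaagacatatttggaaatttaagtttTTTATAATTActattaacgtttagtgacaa
gro: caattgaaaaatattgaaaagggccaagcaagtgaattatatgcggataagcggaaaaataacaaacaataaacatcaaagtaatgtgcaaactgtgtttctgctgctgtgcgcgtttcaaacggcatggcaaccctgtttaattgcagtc

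The windows of 201 bases around all 15 summits were searched on both strands for 7 motifs. The Su(H) site, taken as CGTGGGAA, TGTGGGAA, CGTGAGAA or TGTGAGAA, was in 0 of the 15, in 1.817% of all optimal peaks and in 2.057% of equal windows at 19252 annotated gene starts. TAATTA, bound by many homeodomain proteins, was in 4 of 15: both neur peaks, the Ser peak and the mam peak ranked 2495. It was in 17.95% of all optimal peaks and in 9.391% of the start windows. In Ser it lies outside the 151 bases printed above. TATAAA was in 5 of 15, against 34.79% of all optimal peaks and 26.92% of start windows: the peaks ranked 717 at neur, 753 at N, and 1953, 2495 and 2656 at mam. GAGAGAG, the GAGA factor core, was in 1 mam window (rank 2442), and CACGTG or CACGCG, bound by bHLH proteins such as those of the E(spl) genes, was in another (rank 1953). Their shares of all optimal peaks were 5.342% and 6.996%. TATCGATA and GGTCACACT, 2 promoter motifs, were in 0 of 15, against 3.416% and 1.383%. No test was made on 15 windows, and a match or its absence describes the letters only.

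N, the receptor, spans 37352 bp of the X chromosome (FBgn0004647, chrX:3134870-3172221, plus strand) and has a single annotated start. Both of its optimal peaks lay far from it, side by side in an intron of 4245 bp, intron 5 of 8 in both transcripts. The higher, chrX:3162397-3162542, ranked 753, and its summit was 27634 bp downstream of the start. The corresponding peak ranked 649, 528 and 1796 in replicates 1, 2 and 3 (mean 991 ± 699.8, SD, n = 3), so replicate 3 placed it lowest, though within its 3688 highest. The second, chrX:3162483-3162932, ranked 3225 and overlaps the first, and the same replicate peaks support both. The nearest protein-coding start is not that of N but that of CG18508, 10636 bp away, which lies 919 bp past the end of N. N is therefore counted through its body alone.

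At the start of N itself no optimal peak was present. The pooled list held a lower peak 225 bp downstream of it, ranked 7274, and each replicate had a peak within 500 bp, at ranks 4810, 9224 and 16853 in replicates 1, 2 and 3. N had 14 peaks in the pooled relaxed list and 11, 10 and 11 in the replicates, nearly equal counts. Of the 552 genes within 1.5 times its length, N included, 46.2% had an optimal peak and 25.54% had at least 2, as N did.

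Ser, a ligand gene of 22178 bp (FBgn0004197, chr3R:27172090-27194267, minus strand), had a single optimal peak, and it was intergenic. It lay at chr3R:27208994-27209443, with the summit 14952 bp upstream of the outermost Ser start, and ranked 1592. The replicates ranked it 2317, 1510 and 1223 (mean 1683 ± 567.2, SD, n = 3), and their summits lay 14955, 14940 and 14958 bp from the start, so all 3 placed it at close to the same position. Ser is the nearest protein-coding gene, but the non-coding gene lncRNA:CR34006 is nearer, at 8965 bp, and Ser has no optimal peak once non-coding genes compete. No other peak of Ser in any list ranked above 8226. At its starts there was a peak ranked 22387 in the pool, 30 bp from a start, and one ranked 21713 in replicate 1.

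Dl, the other ligand gene, is of nearly the same length, 23487 bp (FBgn0000463, chr3R:19302731-19326217, minus strand; the annotation spells the symbol Delta). It had 0 optimal peaks: the optimal list came no nearer to it than a summit 75807 bp away, ranked 3299 and nearest to vib. Of 772 genes of like length, 47.54% had at least 1 optimal peak. Its best relaxed ranks were 7828, 8653 and 12488 in replicates 1, 2 and 3 (mean 9656 ± 2487, SD, n = 3) and 11853 in the pool, all below the length of the optimal list. These best peaks were not at 1 place. In replicate 1 and in the pool the peak was 46 and 41 bp upstream of the single Dl start. Replicate 2 held a peak at the start itself at rank 9381, below another 4121 bp downstream. The closest peak of replicate 3 was 1094 bp upstream of the start, at rank 14229, and its best peak was 10908 bp upstream. Inside the Dl body there were 6 and 12 relaxed peaks in replicates 1 and 2 and 0 in replicate 3.

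**Figure D1:**
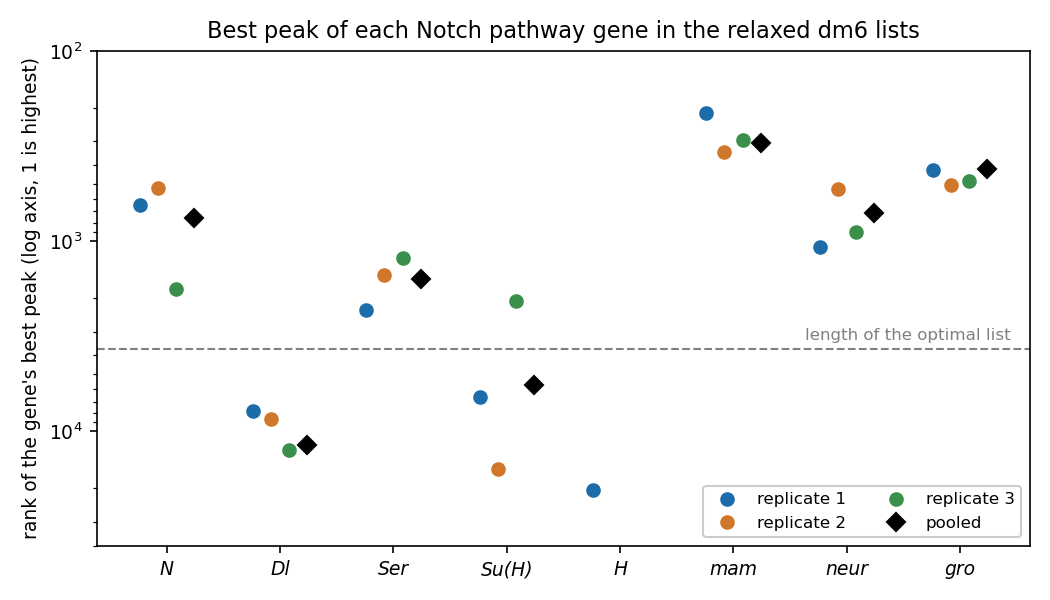
Rank of the best peak of each core gene (vertical log axis, 1 is highest) in the relaxed list of each replicate (circles) and of the pool (diamonds); the dashed line marks the 3688 peaks of the optimal list. The best peaks of N, Ser, mam, neur and gro lie above the line in all 4 lists, those of Dl lie below it in all 4, Su(H) crosses it in replicate 3 and H has a point in replicate 1 only.

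neur, the ligase gene (FBgn0002932, chr3R:9020348-9039471, minus strand, 19124 bp), has 5 transcripts from 2 starts. Its 2 optimal peaks overlap and stood at the internal start. The higher, chr3R:9033650-9034099, ranked 717 with its summit 144 bp upstream of that start, and the lower, chr3R:9033851-9034300, ranked 1260 with its summit 345 bp upstream. In the 3 transcripts that begin further upstream both summits fall in the first intron, of 15309 bp. The best replicate ranks were 1077, 535 and 900 (mean 837.3 ± 276.4, SD, n = 3), all within the 3688 highest. A further optimal peak, ranked 3127, lay within 500 bp of the outer neur start but nearer to a start of hyx, so it is not counted for neur. Of 885 genes of like length, 21.47% had at least 2 optimal peaks.

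The replicates differed in the rest of neur. Over the whole gene, internal start peaks included, replicates 1 and 2 held 9 and 15 relaxed peaks, spread along it, and replicate 3 held 3. Of these 3, 2 were the internal start peaks, at ranks 900 and 1858.

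gro, the co-repressor gene (FBgn0001139, chr3R:26041736-26049911, plus strand, 8176 bp), has 10 transcripts from 4 starts and an optimal peak at 2 of these starts. The higher, chr3R:26042398-26042624, ranked 421 and had its summit 102 bp upstream of an internal start and 803 bp inside the gene, within the first intron of 8 of the transcripts. The lower, chr3R:26041477-26041926, ranked 2576 with its summit 34 bp upstream of the outermost start. The internal peak ranked 422, 505 and 482 in replicates 1, 2 and 3 (mean 469.7 ± 42.85, SD, n = 3), the smallest SD of best ranks among the 7 genes ranked in all replicates. The outer peak ranked 2224, 3152 and 2110. A further peak in the pool, at rank 4031, was 79 bp from a gro start and outside the optimal list. Of 1599 genes of like length, 11.26% had at least 2 optimal peaks, as gro did.

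gro lies at the end of the E(spl) gene complex, 728 bp from E(spl)m8-HLH. Between E(spl)mdelta-HLH and gro, chr3R:25997621-26049911, there were 6 optimal peaks, 2 of them those of gro. The other 4 were nearest to E(spl)m3-HLH (rank 301), E(spl)m7-HLH (rank 392), E(spl)malpha-BFM (rank 1452) and E(spl)m2-BFM (rank 1721). The gro internal peak thus ranked next after those of E(spl)m3-HLH and E(spl)m7-HLH. The bodies of these genes, not their peaks, lie 18609 and 3717 bp from that of gro. The replicate ranks at E(spl)m3-HLH were 438, 192 and 272 and at E(spl)m7-HLH 374, 234 and 852, which overlap those of gro.

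**Figure D2:**
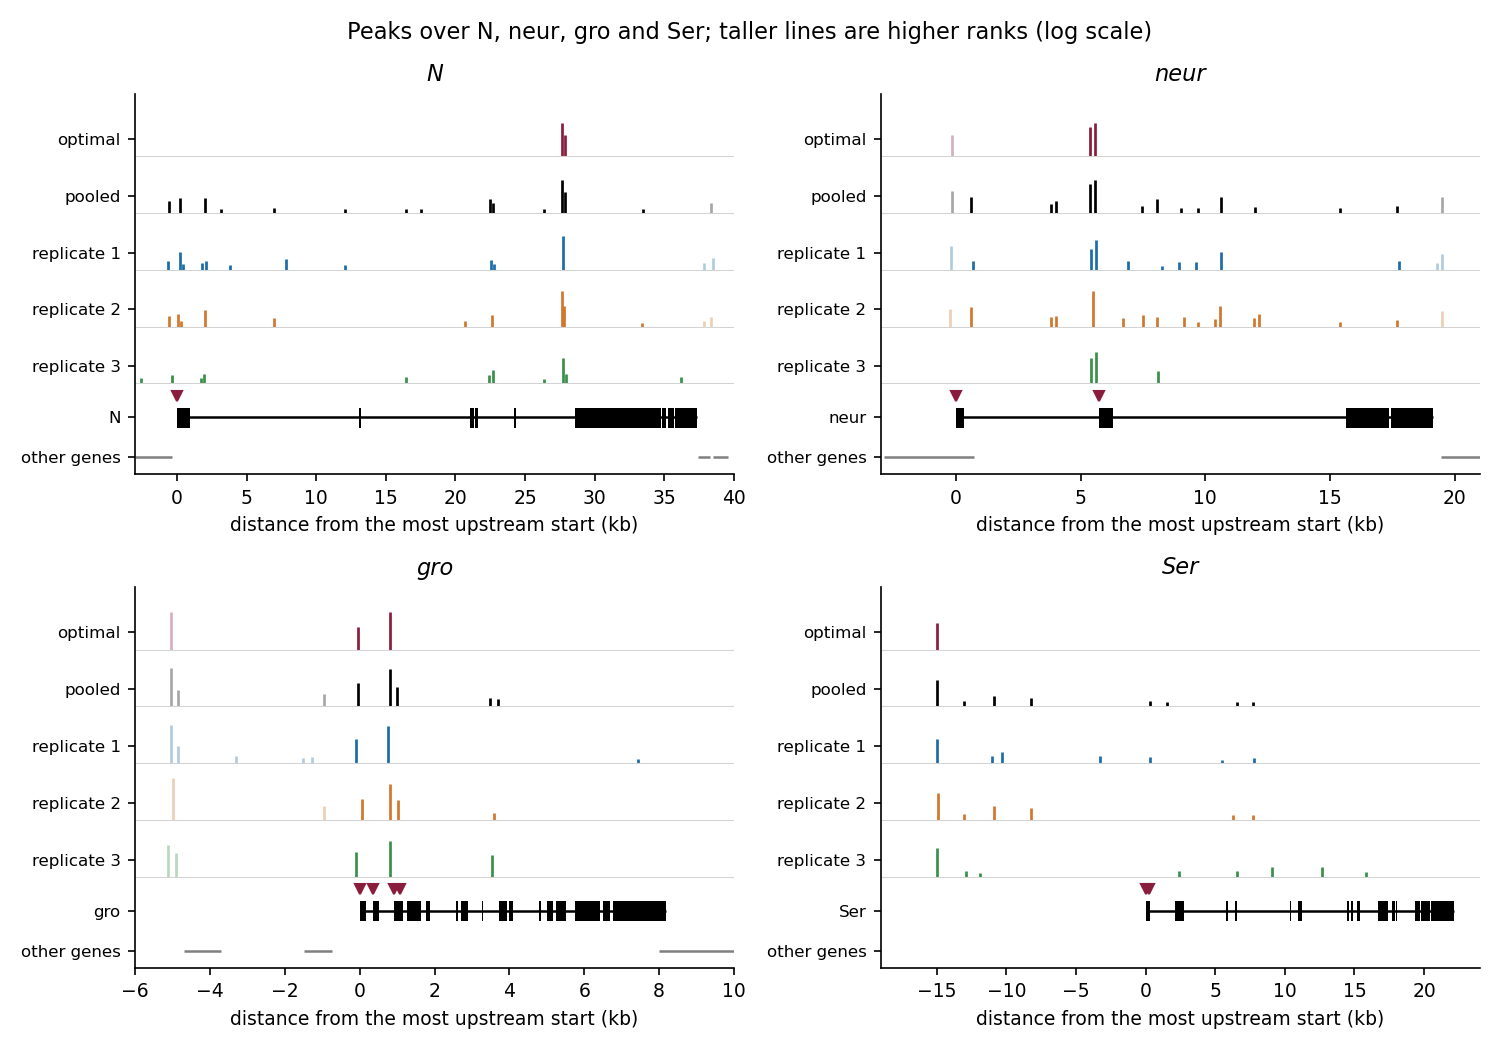
Peak summits over N, neur, gro and Ser in the optimal, pooled and replicate lists, against the distance from the outermost start in kb along the direction of transcription; line height is the rank on a log scale within a list, pale lines are peaks assigned to other genes, black boxes are exons, triangles are starts and grey bars other protein-coding genes. Among the lines of the named gene in the optimal list, the highest is 27.6 kb inside N, 5.6 kb inside neur, 0.8 kb inside gro and 15.0 kb upstream of Ser.

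mam, the co-activator gene, is the longest of the 8 (FBgn0002643, chr2R:13991203-14060356, plus strand, 69154 bp) and has 4 transcripts from 3 starts. It held 8 of the 15 optimal peaks and the highest one. Of 278 genes within 1.5 times its length, mam included, 50.72% had at least 1 optimal peak, the median was 1, and 6 genes (2.158%) had 8 or more. In the whole annotation 13 genes had 8 or more. Per 10 kb of gene body mam had 1.012 optimal peaks, neur 1.046, gro 1.223 and N 0.5354, with overlapping peaks counted separately. The neur and N values each rest on 2 overlapping peaks that merge into 1 region. The gro value rests on 1 peak and that of mam on 7, so these densities do not rank the genes.

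The highest mam peak, chr2R:14025018-14025324, ranked 306 with a signal value of 555.3. Its summit was 33997 bp inside the gene, in an intron of 27528 bp (chr2R:14011182-14038709). The replicates ranked it 212, 342 and 296 (mean 283.3 ± 65.92, SD, n = 3), so it was within the 342 highest of 30000 in each. The nearest start is that of CG18371, a gene of 477 bp nested in the same intron, 3420 bp further downstream, so this peak belongs to both genes by the rule. The same intron held the peaks ranked 1295 (1010, 1314 and 1611 in the replicates) and 2442, the latter 387 bp upstream of an internal mam start and ranked 4391, 2313 and 3219. The peak ranked 1295 was also nearest to the CG18371 start, 4143 bp away, and counts for mam through its body alone. Naming was limited to the 3 genes whose best optimal peak had the most similar replicate ranks, tal-1A, tal-2A and tal-3A. They share 1 peak, ranked 183, 341 and 308 (summed difference of 0.08242 in log10 rank, over 2390 genes), so they stand for a single locus. tal-AA, with the same length and number of optimal peaks, was not among the 3 named.

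A further 4 optimal peaks lay in the upstream intron of 18058 bp (chr2R:13992105-14010162), which is an intron of 1 transcript. They ranked 1953, 2495, 2656 and 3180, and none of them was supported by all 3 replicates. The peak ranked 1953 was 351 bp upstream of an internal start and ranked 1228 and 2384 in replicates 1 and 2, with no overlapping peak among the 30000 of replicate 3. The peak ranked 2656 ranked 2685 and 2810, also with none in replicate 3. The overlapping peaks ranked 2495 and 3180 shared replicate peaks ranked 2968, 1706 and 5671. The last mam peak, ranked 3110, stood 119 bp upstream of the outermost start. A higher optimal peak, rank 1210, lay within 500 bp of the same start but nearer to that of the neighbour RN-tre, and is not counted for mam. The highest replicate peaks that overlap the peak ranked 3110 ranked 1181, 1692 and 685. By their summits those of replicates 1 and 3 belong to RN-tre. In replicate 1 the support for this mam peak is therefore through a neighbour's peak. Replicate 3 also held a peak of mam itself, ranked 1516, whose summit lies inside the optimal peak. The peaks assigned to mam itself at this start ranked 1692 in replicate 2 and 1516 in replicate 3. Replicate 1 had only a low one within 500 bp, ranked 23376, with its summit 0.391 kb downstream of the start.

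**Figure D3:**
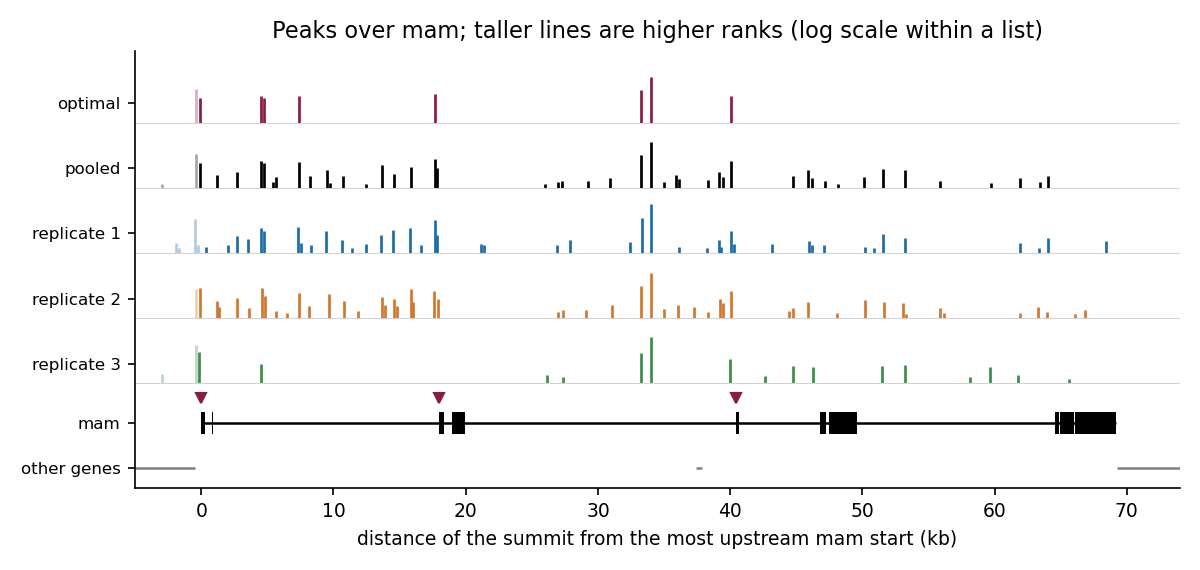
Peak summits over mam in the 5 lists, against the distance from the outermost start in kb; line height is the rank on a log scale within a list, pale lines are peaks assigned to other genes only, black boxes are exons, triangles are starts and grey bars other protein-coding genes. The upstream intron holds 18 and 21 peaks in replicates 1 and 2 and 1 in replicate 3, while the highest peak, 34.0 kb inside the gene, is present in all.

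Replicate 3 held fewer relaxed peaks than the others at mam, neur and Dl, and the gap in number was widest at mam. The gene had 44 and 50 relaxed peaks in replicates 1 and 2 and 16 in replicate 3, and 45 in the pool. In the 18058-bp intron the counts were 18, 21 and 1, and the peaks covered 39.1%, 45.46% and 2.193% of it. In the 27528-bp intron the counts were 17, 16 and 8, covering 21.4%, 22.68% and 11.51%. Elsewhere in and beside the gene they were 9, 13 and 7. Replicate 3 thus held 0.3404 times the mean of the other replicates at mam, 0.25 times at neur and 0.6 times at Dl, but 0.8571 times at gro, 1.048 times at N and 1.231 times at Ser. At Su(H) and H, with at most 3 peaks in a replicate, the ratios were 1.5 and 0. Among the 187 genes of at least 50000 bp with a mean of 10 or more peaks in replicates 1 and 2, the median ratio was 1 (quartiles 0.7872 and 1.391), and lola and sli were the only genes with a lower ratio than mam. All 3 lie on 2R, where replicate 3 held 5253 peaks and the others 5568 and 5705, a ratio of 0.932. This pattern was chosen after its values were seen, depth is unknown, and what sets replicate 3 apart was not tested.

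**Figure D4:**
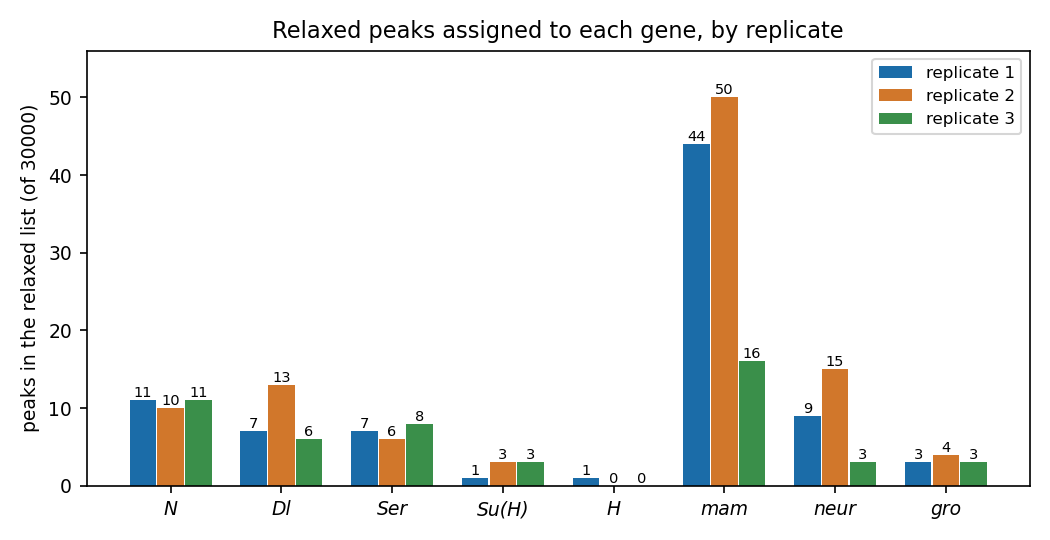
Number of relaxed peaks assigned to each core gene in replicates 1, 2 and 3 (bars, with the count printed above each), of 30000 peaks in each list. mam has 44 and 50 peaks in replicates 1 and 2 and 16 in replicate 3, neur has 9 and 15 and then 3, and N has 10 or 11 in each.

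Su(H), the DNA-binding partner (FBgn0004837, chr2L:15039488-15043334, plus strand, 3847 bp), had 0 optimal peaks, and the nearest optimal summit was 13591 bp away, ranked 1644 and nearest to ck. Every relaxed list nevertheless held a peak at its single start, 69 bp upstream in the pool and 90, 23 and 69 bp away in the replicates. Its ranks differed widely, 6652, 15802 and 2065 (mean 8173 ± 6994, SD, n = 3), with 5753 in the pool. The start peak of Su(H) was therefore inside the 3688 highest of replicate 3 and outside those of replicates 1 and 2. Among 2952 genes of like length, 21.34% had an optimal peak.

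H, the co-repressor adaptor (FBgn0001169, chr3R:20621938-20628915, plus strand, 6978 bp), was the gene with the fewest peaks. It had 0 in the optimal and pooled lists and in replicates 2 and 3, and 1 in replicate 1, ranked 20470 and 151 bp upstream of its start. The nearest optimal summit was 27267 bp away, ranked 820 and nearest to bon, and the nearest pooled summit was 5270 bp away, ranked 23305. Of 1817 genes of like length, 30.49% had an optimal peak.

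Ordered by the mean of the best replicate ranks, the genes ran mam, gro, neur, N, Ser, Su(H) and Dl, with H having a rank in a single replicate. The replicate ranks of mam, 212 to 342, did not overlap those of gro, 422 to 505. Those of gro did not overlap those of neur, 535 to 1077. This separation holds for ranks by signal value only. Ranked by −log10 q, mam and gro tied at rank 1 in all 3 replicates, and neur ranked 1658, 1 and 1. The ranges of neur, N (528 to 1796) and Ser (1223 to 2317) overlapped each with the next, and so did those of Su(H) and Dl, so these neighbours were not separated by their spread. Ser and Su(H), 1223 to 2317 against 2065 to 15802, also overlapped. In the pooled list the 8 genes held 96 peaks, 15 in the 3688 highest, 18 at lower ranks to 10000, 29 from there to 20000 and 34 in the last 10000.

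**Figure D5:**
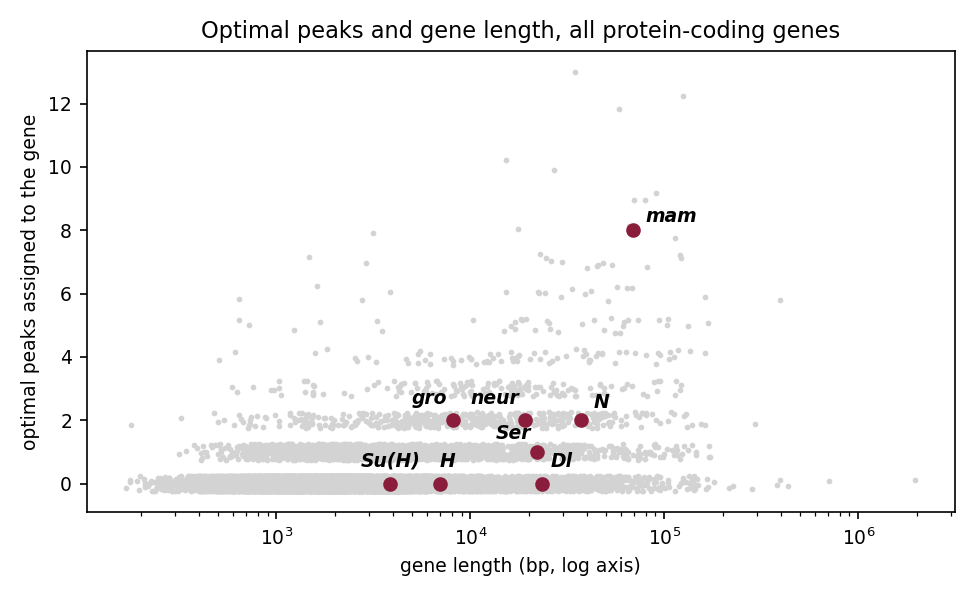
Number of optimal peaks assigned to each protein-coding gene against gene length (log axis, bp); grey points are all 13945 genes, shifted slightly in height so that they can be told apart, and red points are the 8 core genes. mam stands at 8 among genes of similar length with a median of 1, and Dl, H and Su(H) stand at 0.

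The rest of the pathway was described with 6 lists of 37 genes, written with earlier results known. Optimal peaks were found at 13 of the 37 (35.14%), 17 peaks in all, against 5 of 8 core genes and 20.1% of all genes. Of 4 genes that put sugars on the receptor, 2 had a peak: rumi, a glucosyltransferase, at rank 907, and fng, which modifies how Notch reads its ligands, at rank 2162 with 2 peaks. Of 6 genes for receptor cleavage, 2 had a peak, the metalloprotease gene kuz at rank 2328 and the gamma-secretase gene aph-1 at rank 979, and Tace, Psn, nct and pen-2 had none. The best replicate peaks assigned to aph-1 itself ranked 1384 and 1361 in replicates 1 and 2, and replicate 3 had none. The highest replicate peaks overlapping its optimal peak, ranked 345, 269 and 207, were assigned to other genes. Of 8 genes for ligand endocytosis and Neuralized regulation, 3 had a peak: aux, the auxilin gene, at rank 1329, E(spl)malpha-BFM, a Bearded-family inhibitor of Neuralized, at 1452, and mib1, a second ligase for the ligands, at 3134. The aux peak is counted through the gene body, as a start of CG14636 was nearer. The mib1 peak was supported by replicate 2 alone.

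Among 6 genes for trafficking and inhibition of the receptor, numb, the inhibitor passed to a single daughter cell in asymmetric divisions, had a peak 142 bp upstream of a start at rank 245 (248, 267 and 168 in the replicates). Nedd4, a ubiquitin ligase gene that acts on Notch, had 2, the higher at rank 2477. Among 6 nuclear cofactor genes, nej, the CBP acetyltransferase gene, had 3 peaks, the highest at rank 184 (270, 146 and 216), and CtBP, a co-repressor gene, had a peak at rank 3038 that no replicate supported. Of 7 E(spl) bHLH genes, E(spl)m3-HLH and E(spl)m7-HLH had a peak each. The best peaks of nej, numb and E(spl)m3-HLH thus ranked above that of mam, the highest of the 8 core genes.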

How the data were processed

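Per the labels and the text notes deposited with each library, the authors made a relaxed peak list per replicate, a list from the pooled replicates, and from these an optimal list by the irreproducible discovery rate. For the aligner, caller, thresholds and control, no name is given in the sources used here. Signal values as deposited, on a scale the authors do not state, ranked the peaks of each list, and the deposited −log10 q value was an alternative for that ranking. Lists in dm3 were not used. Summits were compared with BDGP 6.54 gene models (Ensembl release 115) on the Release 6 genome, in Python 3.11.15 with pandas 2.3.3 and numpy 2.4.6. All annotated starts counted, and genes with equally near starts all counted. Dl was matched through a synonym, and 1 pathway symbol (BobB) was not matched. The steps were tested on simulated data. No test was run, because there is 1 group with no control group, and SDs are over 3 replicates. The core genes, lists and motifs were chosen with earlier results of these data known. Pathway genes given with values are those with an optimal peak, and likeness is the summed difference in log10 rank over replicates.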

Additional observations from a re-analysis of the deposited data

How the results depend on the processing

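The 5 core genes and their 15 peaks were recounted under 10 other settings. The count of genes was 4 with the nearest start alone (N lost), with gene bodies alone or with all annotated genes competing (Ser lost), 3 when a summit had to lie within 500 bp of a start (mam, neur and gro), and 5 otherwise. The count of peaks was 9 when every summit within 500 bp of a core gene's start counted, which adds those nearer to RN-tre and hyx, 7 in the highest 1844 peaks, and 10 to 14 otherwise, also with 1 replicate left out of the support. The share of all genes with a peak moved from 20.11% to 18.79% (nearest start), 10.66% (bodies), 17.38% (within 500 bp), 18.92% (all annotated genes), 11.86% (highest 1844 peaks) and 12.41% (supported by all 3), and it was 13.33% to 15.45% with 1 replicate left out. Support by all replicates ran from 7 of 15 (reciprocal overlap of 50%; 42.35% of all optimal peaks) to 14 (replicates 1 and 2 alone; 73.94%), and the Su(H) site stayed at 0 in narrower windows and in whole peaks. Ranking by −log10 q, where the highest peaks tie at rank 1, moved 16 of 29 best ranks by more than that gene's SD over replicates, among them N in replicate 1 from 649 to 3562. No paired analysis was possible because there is 1 group. The optimal list cannot be called again without a replicate from these files, and depth, which limits how many peaks a replicate can rank reliably, is unknown.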
